A study of Mus musculus with 5 samples.

Results

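The genes described here are 10 regulators of G protein signalling (RGS genes), Rgs2, Rgs4, Rgs6, Rgs7, Rgs8, Rgs9, Rgs10, Rgs12, Rgs14 and Rgs16, chosen by name. All 10 were found among the 15093 genes of the deposited table, which lists 18 genes named Rgs and a number in all. Ribosome-bound RNA of central amygdala (CeA) Drd2 neurons was collected by translating ribosome affinity purification (TRAP) from adult Drd2-TRAP mice, in which a Drd2-Cre transgene switches on a GFP-tagged ribosomal protein L10a from the Rosa26 locus. The tag therefore marks cells with present or past Cre activity, and fear conditioned and control mice carry the same alleles. There were 3 fear conditioned libraries (replicates 2, 3 and 4) and 2 control libraries (replicates 6 and 7), each a pool of 1 mm punches from 3 animals collected 2 h after behavior. The labels call the control group Home Cage and place the collection after extinction, whereas the study's results describe a tone without shock and a collection after conditioning, so the exact control treatment is not settled here.

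RGS proteins end G protein signals. An activated receptor loads its G protein alpha subunit with GTP, and the RGS domain speeds the hydrolysis of that GTP, which returns the alpha subunit to its resting state. The family is divided by sequence: R4 members (here Rgs2, Rgs4, Rgs8 and Rgs16) are small proteins built around the RGS domain, R7 members (Rgs6, Rgs7 and Rgs9) work as stable dimers with the beta subunit Gnb5, and R12 members are the short Rgs10 and the large multidomain Rgs12 and Rgs14. In striatal projection neurons, some of which express Drd2 and others Drd1, Rgs9 and Rgs4 are known as brakes on dopamine, opioid and muscarinic receptor signals.

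The libraries held between 19605318 and 27937520 reads on genes. Values are given in counts per 1000000 (CPM) of the authors' effective library size, on which 3 reads are worth between 0.10 and 0.16 CPM. This floor covers counting error only. The 2 control libraries resembled each other less (Pearson's r of log2 values across genes, which are not independent replicates, 0.787) than the fear conditioned libraries did (0.979 to 0.986), and less than each resembled the fear conditioned libraries (0.909 to 0.911 for replicate 6 and 0.826 to 0.840 for replicate 7). Control replicate 7 listed 2681 genes at 0 and control replicate 6 listed 976, against 159 to 349 in the fear conditioned libraries. The labels do not say that replicates came from separate behavioral cohorts, and p-values therefore measure only the spread between these pools. Markers of the tagged cells were present, with Drd2 at 326, 375 and 555 CPM after fear conditioning and 128 and 262 CPM in controls. Penk, the enkephalin precursor of such neurons, had at least 6098 CPM in every library, while the central amygdala genes Prkcd (11.2 to 41.1 CPM) and Sst (65.5 to 280 CPM) were present at lower levels and Tac2 was at 0 in control replicate 7. In a bulk pull-down, fewer cells of a type and less RNA per cell cannot be told apart.

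Rgs4 was the most abundant of the 10 RGS transcripts. Divided by the deposited gene length, its level was 246 ± 69.1 CPM per kb with fear conditioning (SD, n = 3) and 121 ± 86.4 CPM per kb without it (SD, n = 2), and its mean ranked first among the members in both groups. In control replicate 6 alone, Rgs7 and Rgs10 stood above it per kb.

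The next 5 genes formed a middle group whose order was not resolved. Per kb, the fear conditioned levels were 73.2 ± 4.01 for Rgs14, 69.9 ± 13.1 for Rgs9, 54.9 ± 13.6 for Rgs2, 48.3 ± 10.9 for Rgs7 and 46.6 ± 14.2 for Rgs10 (SD, n = 3 each), and each of these neighbours overlapped the next across the 3 libraries. Rgs8 followed at 31.5 ± 9.66 CPM per kb and also overlapped Rgs10. In controls the order of the middle group differed, with Rgs2 at 68.7 ± 39.7, Rgs10 at 59.4 ± 20.3 and Rgs9 at 27.3 ± 15.4 CPM per kb (SD, n = 2 each).

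A clear step separated the low genes. Rgs12 had 6.01 ± 1.09 CPM per kb after fear conditioning (SD, n = 3), below Rgs8 and above Rgs16 in all 5 libraries. Rgs16 and Rgs6 were the scarcest, at 1.62 ± 0.23 and 1.08 ± 0.60 CPM per kb (SD, n = 3), and overlapped each other. Rgs4 and Rgs9 together made up 45.0%, 58.7% and 58.1% of the summed per-kb level of the 10 genes after fear conditioning (replicates 2, 3 and 4), but 23.7% and 46.0% in the controls (replicates 6 and 7). The mixture of RGS transcripts thus differed between the control libraries, with Rgs7 taking 23.2% and Rgs10 22.8% of the sum in replicate 6, against 7.21% and 9.38% in replicate 7.

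**Figure D1:**
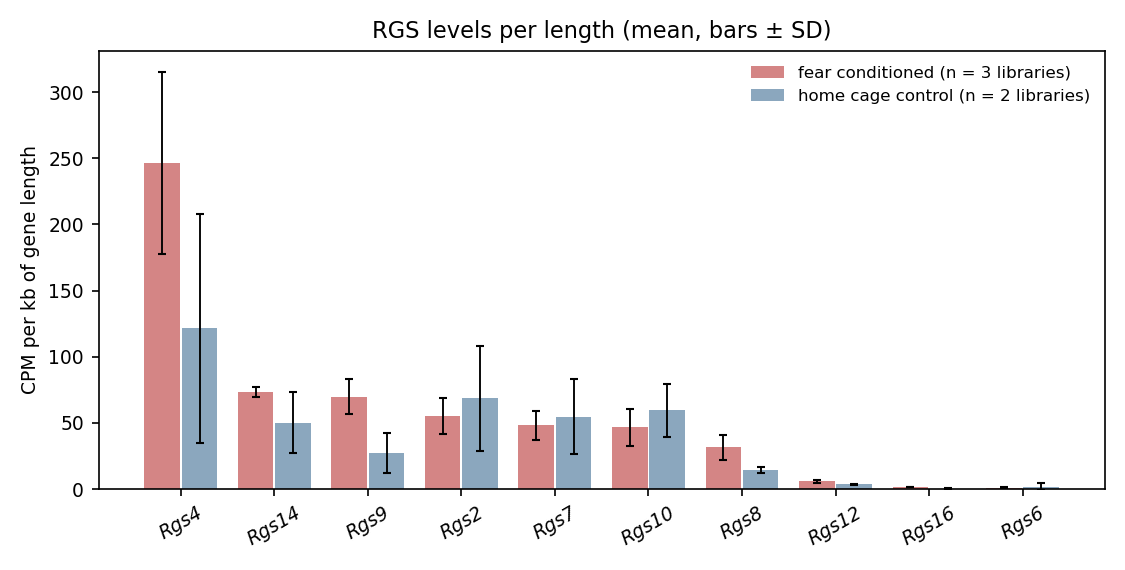
Level of each RGS gene per kb of deposited gene length, as the mean of 3 fear conditioned and 2 control libraries with bars of ± SD. Rgs4 stands at 246 CPM per kb after fear conditioning, while Rgs12, Rgs16 and Rgs6 lie near the bottom of the axis in both groups.

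The start regions of the members ranged from 53.2% to 76.4% in G and C content. RefSeq promoter windows (assembly GRCm38.p6, matched by symbol) were found for 9 of the 10 members, in 12 windows, and 5 of these genes (Rgs2, Rgs4, Rgs7, Rgs8 and Rgs16) lie on chromosome 1. The 250 bases upstream of the start are shown for 4 genes on which the results turn: Rgs4 as the most abundant member, Rgs9 and Rgs16 as members above both controls in every fear conditioned library, and Rgs2, which is known as an activity-induced gene, as one that was not. Capitals mark matches on either strand to TGACG, a half-site of the cAMP response element, and to TATAAA, the core of a TATA box.
Rgs4 (chr1:169747643-169747892, minus strand): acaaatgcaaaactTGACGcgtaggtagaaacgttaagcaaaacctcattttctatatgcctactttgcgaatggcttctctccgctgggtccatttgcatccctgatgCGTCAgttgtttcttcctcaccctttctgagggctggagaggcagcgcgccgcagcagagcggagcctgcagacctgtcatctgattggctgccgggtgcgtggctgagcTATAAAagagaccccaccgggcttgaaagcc
Rgs9 (chr11:109298182-109298431, minus strand): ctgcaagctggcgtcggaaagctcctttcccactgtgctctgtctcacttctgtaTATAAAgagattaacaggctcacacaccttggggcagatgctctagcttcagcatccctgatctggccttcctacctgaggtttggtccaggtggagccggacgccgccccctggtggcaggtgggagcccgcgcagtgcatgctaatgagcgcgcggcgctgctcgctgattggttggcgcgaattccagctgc
Rgs16 (chr1:153740103-153740352, plus strand): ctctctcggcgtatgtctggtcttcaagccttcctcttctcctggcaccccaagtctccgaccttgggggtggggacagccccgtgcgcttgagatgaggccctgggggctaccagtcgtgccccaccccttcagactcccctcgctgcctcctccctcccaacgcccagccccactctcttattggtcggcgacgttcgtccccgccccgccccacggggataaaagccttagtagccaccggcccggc
Rgs2 (chr1:144004150-144004399, minus strand): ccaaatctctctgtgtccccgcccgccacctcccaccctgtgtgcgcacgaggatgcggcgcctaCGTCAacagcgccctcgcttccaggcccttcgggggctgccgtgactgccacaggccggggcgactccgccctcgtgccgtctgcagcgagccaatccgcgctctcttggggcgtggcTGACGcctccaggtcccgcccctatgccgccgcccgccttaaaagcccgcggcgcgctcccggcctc
The half-site occurred 2 times each in the Rgs4 and Rgs2 windows and was not matched in the Rgs9 and Rgs16 windows. It was also matched in a window of Rgs8 (46 bases upstream of the start) and in a window of Rgs12 (82 bases upstream). These are not shown, and the other windows of both genes held no match. Both genes lay above both controls in every fear conditioned library (background 20.2% of all genes). In all, 4 of the 12 member windows held the half-site. Over all 32851 RefSeq windows of the same length it occurred in 17.8%, and the full element TGACGTCA, which contains the half-site on both strands, in 1.55% and in no member's window. TATAAA was matched in the Rgs4 window, 31 bases upstream of the start, and in the Rgs9 window, 195 bases upstream, against 12.4% of all windows. The Rgs2 window held 72.4% G and C and 4 matches to the GC box letters GGGCGG (32.7% of all windows), while the Rgs4 window held 53.6% G and C and none. The Rgs9 window held 1 such match and the Rgs16 window 2, and 6 of the 12 member windows held the letters. Over all windows the median G and C content was 52.4%. These matches describe the letters in the windows and do not show binding.

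Among the R4 members, Rgs8 and Rgs16 lay above both controls in every fear conditioned library, Rgs4 was higher on average, and Rgs2 was mixed. Rgs4 (ENSMUSG00000038530) acts on alpha subunits of the Gi/o and Gq classes. It yielded 889.7, 1547 and 1508 CPM per fear conditioned library and 322 and 974 CPM per control library. Fear conditioned replicates 3 and 4 stood above both controls, but replicate 2 lay below control replicate 7, so the groups overlapped. The log2 fold change, here and for the other genes on the log2(CPM + 1) scale, was 1.19 (standard error 0.52, 95% interval -0.06 to 2.44). It was 0.39 without control replicate 6 and 1.98 without control replicate 7.

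Rgs8 (ENSMUSG00000042671), a neuronal R4 member, stood at 146, 279 and 233 CPM with fear conditioning and at 109 and 87.5 CPM without it. The groups did not overlap, and here the 2 controls were close to each other. Its log2 fold change was 1.11 (standard error 0.32, 95% interval 0.32 to 1.89), with an unadjusted p of 0.0133 and an adjusted p of 0.217 (limma with Benjamini-Hochberg adjustment over 13560 genes).

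Rgs16 (ENSMUSG00000026475), whose product acts on Gi/o and Gq class subunits and which is known for daily rhythms in the brain, was scarce in every library. It yielded 77, 105 and 67 reads per fear conditioned library (3.65, 4.37 and 3.33 CPM) and 15 and 21 reads per control library (0.501 and 1.11 CPM). All fear conditioned libraries exceeded both controls. On the log2 scale Rgs16 differed by 1.42 (standard error 0.53, unadjusted p = 0.0346 and adjusted p = 0.264, limma), and the pseudocount of 1 lowers this value, since it was 2.18 with a pseudocount of 0.1. It was 0.57 after quantile normalization, where the groups overlapped.

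Rgs2 (ENSMUSG00000026360), which prefers Gq class subunits, yielded 269, 175 and 184 CPM per fear conditioned library and 155 and 369 CPM per control library. The 2 controls enclosed all 3 fear conditioned libraries. The log2 fold change of -0.22 (95% interval -1.22 to 0.78) became -0.84 without control replicate 6 and 0.41 without control replicate 7, so its sign rests on which control is used.

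**Figure D2:**
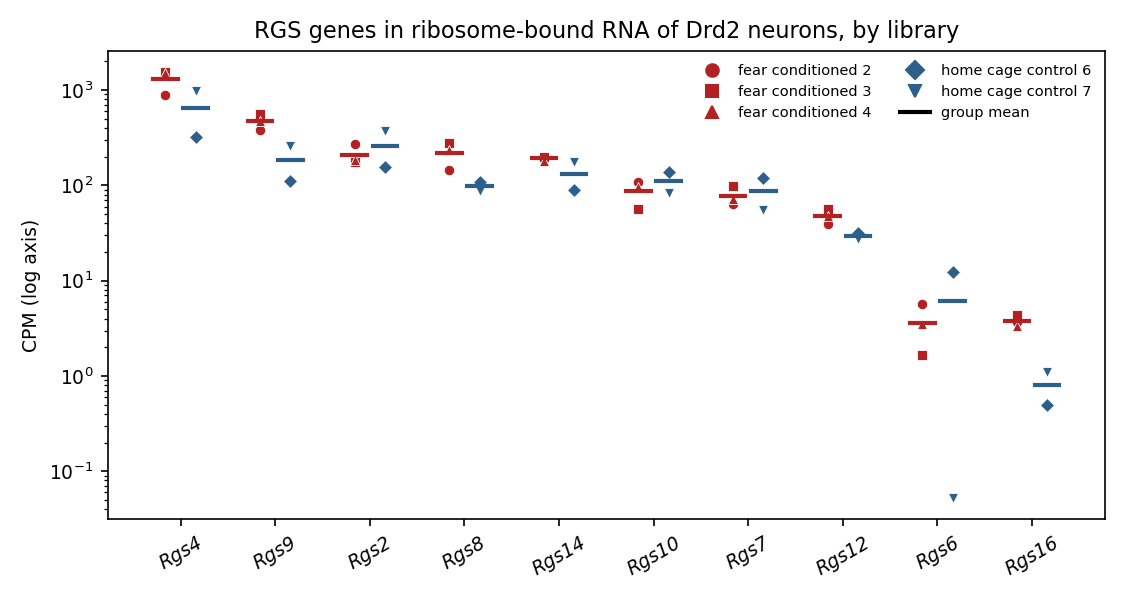
CPM of the 10 RGS genes in each library on a log axis, ordered by the mean over all libraries, with a line at each group mean. All fear conditioned points of Rgs9, Rgs8, Rgs14, Rgs12 and Rgs16 lie above both control points, and Rgs6 is at 12.2 and 0.0527 CPM in the 2 controls.

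Of the R7 members, Rgs9 showed the highest log2(CPM + 1) fold change of the 10 genes in limma, whereas Rgs6 and Rgs7 did not separate the groups. Rgs9 (ENSMUSG00000020599), the striatum-enriched member of the R7 family, stood at 385, 562 and 476 CPM with fear conditioning and at 112 and 259 CPM without it. The lowest fear conditioned library exceeded the higher control. The log2 fold change was 1.46 (standard error 0.39, 95% interval 0.51 to 2.40), with an unadjusted p of 0.00903 and an adjusted p of 0.206 (limma), and it stayed between 0.85 and 2.06 when any single library was left out. The exact permutation test, two-sided, gave p = 0.1, the smallest that 3 libraries against 2 allow. The same exact test gave p = 0.1 for Rgs12, Rgs14 and Rgs16 and p = 0.2 for Rgs8.

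Rgs7 (ENSMUSG00000026527), the broadly neuronal R7 member, yielded 63.7, 97.7 and 72.2 CPM per fear conditioned library and 121 and 55.8 CPM per control library. As for Rgs2, the controls enclosed the fear conditioned libraries, but with the order of the controls turned. The log2 fold change was -0.10 (95% interval -1.06 to 0.85), and 0.45 without control replicate 6. Rgs6 (ENSMUSG00000021219) stood at 121, 40 and 70 reads with fear conditioning and at 365 and 1 reads without it, so that no direction can be read (log2 fold change 0.21, 95% interval -2.52 to 2.95). In RefSeq, Rgs6 also overlaps 6 other genes, and the strand setting of the read counting is not given in the sources used here.

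Of the R12 members, Rgs12 and Rgs14 lay above both controls in every fear conditioned library, and Rgs10 overlapped. Rgs14 (ENSMUSG00000052087), which joins an RGS domain to Ras-binding and Gi-binding domains and is known from hippocampal area CA2, yielded 199.8, 199 and 181 CPM per fear conditioned library and 89.1 and 175 CPM per control library. The groups did not overlap, although control replicate 7 came within a few CPM of the lowest fear conditioned library. The log2 fold change was 0.62 (standard error 0.32), and 0.14 without control replicate 6. Rgs12 (ENSMUSG00000029101), the largest protein of the group, whose gene spans the microRNA gene Mir3097, stood at 39.5, 56.8 and 47.2 CPM with fear conditioning and at 32.0 and 27.5 CPM without it, again without overlap, with a log2 fold change of 0.66 (standard error 0.31). Rgs10 (ENSMUSG00000030844), a short RGS protein known from microglia as well as neurons, yielded 108, 57.1 and 95.4 CPM per fear conditioned library and 137 and 83.7 CPM per control library. Its groups overlapped, and the log2 fold change was -0.35 (95% interval -1.26 to 0.55).

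Over the 10 genes, 0 passed both cutoffs in limma, which were an adjusted p of 0.05 and a log2 fold change of 0.5 in either direction, as did 0% of all 13560 genes tested. At an unadjusted p under 0.05, 3 members were higher after fear conditioning (Rgs8, Rgs9 and Rgs16; background 9.49% of all genes) and 0 were lower (background 7.32%). That fit assumes equal spread in both groups. When limma gave each group its own weight, the unadjusted p was 0.0304 for Rgs9, 0.149 for Rgs8 and 0.182 for Rgs16. In 5 members, Rgs8, Rgs9, Rgs12, Rgs14 and Rgs16, every fear conditioned library exceeded both controls (background 20.2%), and in 0 members were all below (background 16.1%). The median log2 fold change of the members was 0.64, against 0.08 for all genes tested. The members were chosen with earlier results of these libraries known, so these counts describe them only.

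On the reads recovered from the CPM values, DESeq2 called Rgs8 (log2 fold change 1.13, adjusted p = 0.0341) and Rgs9 (1.30, adjusted p = 0.0465) of the 10, with 4.53% of its genes called higher. The quasi-likelihood test of edgeR called 0 of the 10 (lowest adjusted p = 0.179), as did limma with voom weights (lowest adjusted p = 0.149). Leaving out control replicate 6 led limma to call 6 members (Rgs6, Rgs8, Rgs9, Rgs12 and Rgs16 higher and Rgs2 lower), and leaving out control replicate 7 led to 5 (Rgs4, Rgs9, Rgs14 and Rgs16 higher and Rgs6 lower). The same fits called 60.5% and 27.5% of all genes, and in them the remaining control is assumed to vary as little as the fear conditioned libraries. Only Rgs9 and Rgs16 were called in the same direction in both of these fits, while Rgs6 changed direction.

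**Figure D3:**
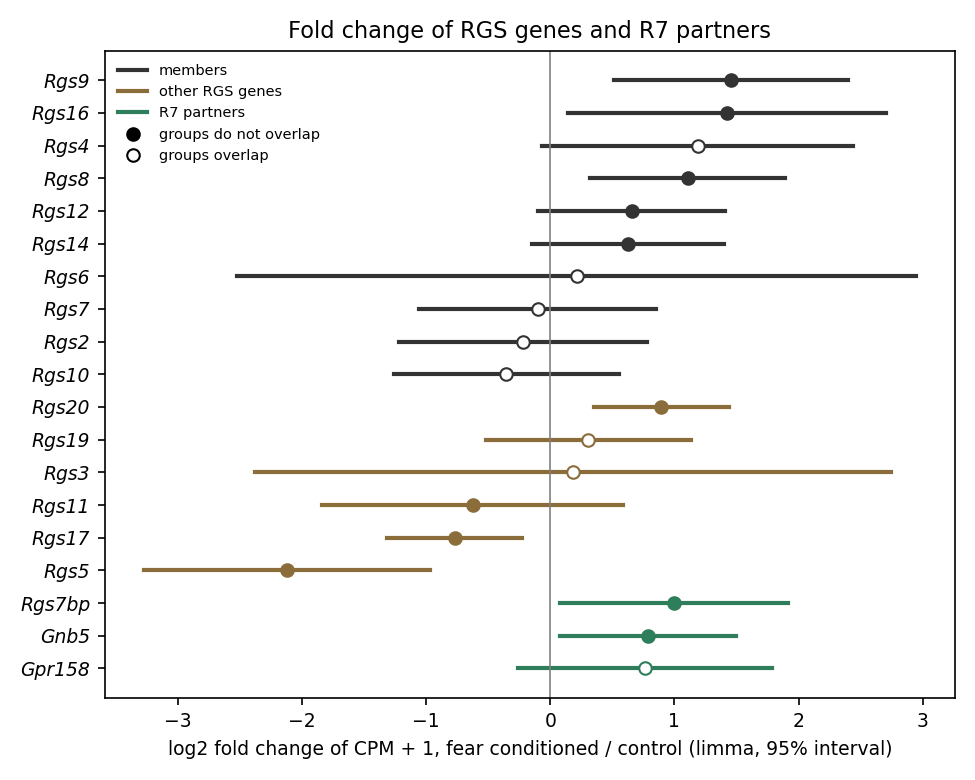
Log2 fold change of CPM + 1 between fear conditioned and control libraries with 95% intervals from limma, for the 10 RGS genes, 6 other RGS genes and 3 partners of the R7 family. Filled points mark genes whose groups do not overlap, and the intervals of Rgs9, Rgs8 and Rgs16 exclude 0 among the 10 members.

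Genes of striatal projection neurons were also higher on average after fear conditioning. Of 18 such marker genes in the table, 11 lay above both controls in every fear conditioned library and 0 lay below (background 20.2% and 16.1% of all genes). Their summed level was 25674.5 to 29021 CPM after fear conditioning and 10767 and 16920 CPM in controls. Penk alone made up 13564.5 to 16076 CPM after fear conditioning and 6098 and 8606 CPM in controls. The list mixes genes of Drd2 and of Drd1 neurons, and both kinds lay higher: Drd2 had a log2 fold change of 1.15, Drd1a one of 1.23 and Tac1, the substance P precursor of Drd1 neurons, one of 1.52 (Drd1a and Tac1 were named after their values were seen, as were Nrgn, Gnal and Gnas in the lists given later). For Drd2 the adjusted p was 0.239 (limma), and its log2 fold change ranged from 0.64 to 1.66 with each library left out. The study reported no significant change of Drd2 in its TRAP data. Adora2a, the adenosine receptor of Drd2 neurons, had a log2 fold change of 1.92, which was 1.23 without control replicate 6 and 2.62 without control replicate 7. The part of these differences in the RGS values was not tested. As a description, each member was set against Drd2 in the same library.

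Relative to Drd2, the differences of Rgs4, Rgs8 and Rgs9 were small. The log2 ratio of Rgs9 to Drd2 was 0.24, 0.58 and -0.22 after fear conditioning and -0.20 and -0.01 in controls, with overlapping groups and means 0.31 apart. The mean log2 ratio of Rgs4 was 1.65 ± 0.35 (SD, n = 3) and 1.61 ± 0.40 (SD, n = 2), and that of Rgs8 was -0.94 ± 0.45 and -0.91 ± 0.95. Each of these 3 differences was smaller than the SD of the fear conditioned libraries.

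The ratio of Rgs16 to Drd2 stayed above both controls in every fear conditioned library (-6.48, -6.42 and -7.38 against -8.00 and -7.88; background 3.33% of all genes). The ratios of Rgs2 (-0.28, -1.10 and -1.59 against 0.27 and 0.50) and Rgs14 (-0.71, -0.91 and -1.61 against -0.53 and -0.58) lay below both controls in every fear conditioned library, as did 44.3% of all genes. For Rgs14 the sign of the difference was therefore opposite on the CPM scale and relative to Drd2. Of the 10 members, 4 had a higher and 6 a lower mean ratio after fear conditioning, and a lower mean ratio was found for 85.1% of the 11609 tested genes above 0 in every library. The 4 include Rgs6, whose ratio was -5.83, -7.81 and -7.32 after fear conditioning and -3.40 and -12.3 in controls. The last of these values came from 1 read in control replicate 7, so the place of Rgs6 in this count rests on that library.

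**Figure D4:**
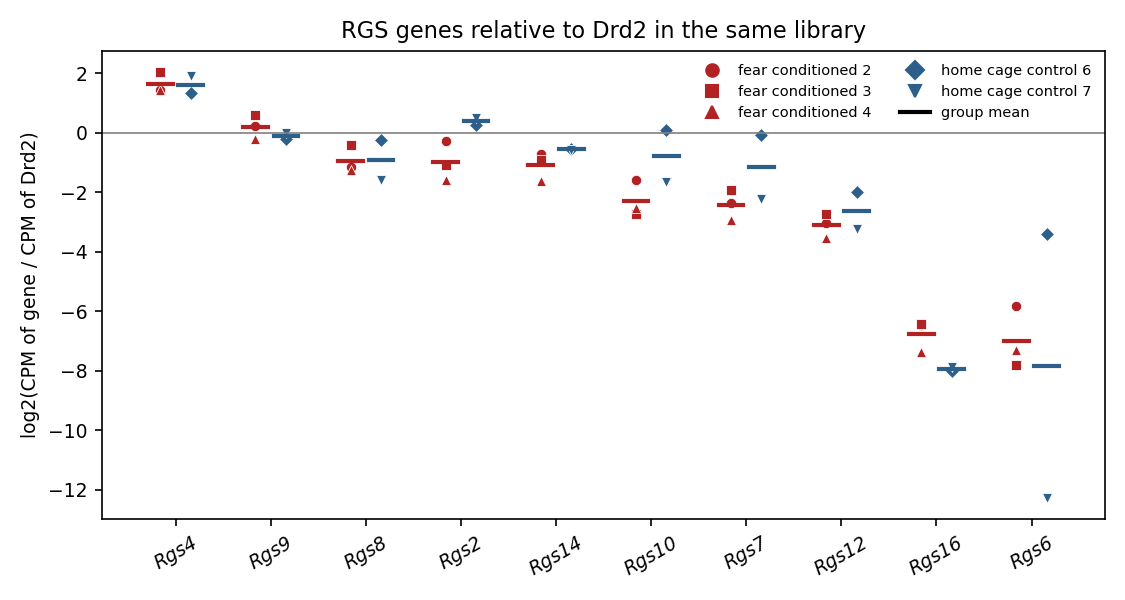
Log2 ratio of the CPM of each RGS gene to that of Drd2 in the same library, with a line at each group mean. Rgs4, Rgs8 and Rgs9 have nearly equal means in the groups, Rgs2 and Rgs14 lie lower and Rgs16 lies higher in every fear conditioned library.

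Markers of other cell types also differed between the libraries. The summed level of 11 microglia markers was 139, 77.0 and 138 CPM after fear conditioning and 169 and 141 CPM in controls, and none was at 0 in a library. Of these markers, 2 were higher and 3 lower without overlap (background 20.2% and 16.1% of all genes, here and for the lists that follow). Rgs10, too, was lowest in fear conditioned replicate 3 and highest in control replicate 6, as was the sum of the interneuron markers given below. In control replicate 7, Rgs10 lay below fear conditioned replicates 2 and 4, while the microglia sum did not. Rgs5, an RGS gene of pericytes that is no member, stood at 11.7, 5.83 and 9.93 CPM with fear conditioning and at 48.3 and 36.2 CPM without it (log2 fold change -2.12, unadjusted p = 0.00387 and adjusted p = 0.197, limma). The 12 endothelial and mural markers summed to 70.8, 27.2 and 60.5 CPM after fear conditioning and to 63.2 and 103 CPM in controls. Of 9 tested, 2 were higher (Cldn5 and Tagln) and 2 lower (Pdgfrb and Vtn) without overlap. Of the 12, 4 were at 0 in at least 1 library. Choroid plexus markers summed to between 58.1 and 111 CPM after fear conditioning and to 1035 and 1422 CPM in controls, with 0 of 8 tested higher and 5 lower without overlap. The control sums were mostly Ttr (913 and 1320 CPM). The fear conditioned sums were mostly Clic6 (50.9, 77.2 and 56.2 CPM, against 51.1 and 64.2 CPM in controls), which overlapped. Astrocyte markers summed to 889 to 1121 CPM against 2293 and 2939 CPM (0 higher and 5 lower of 9), and oligodendrocyte markers to 1297 to 2760 CPM against 2855 and 5371 CPM (0 and 4 of 10). Of the other neuron lists, central amygdala markers (168 to 322 CPM against 332 and 549 CPM, 0 and 4 of 9) and interneuron markers (154 to 208 CPM against 280 and 404 CPM, 0 and 2 of 8) summed lower after fear conditioning. Of 14 pallial glutamatergic markers, 2 were higher and 5 lower without overlap, with a median log2 fold change of -0.50. Their sum of 4149 to 4571 CPM against 2434.5 and 3722 CPM was mostly Nrgn, and without it the sum was 514 to 703 CPM against 944 and 963 CPM. The part of these cells in the RGS values was not tested.

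Of the 10 listed RGS subfamily genes that are no member, 8 were in the table and 6 were tested. Rgs20 lay above both controls in every fear conditioned library (background 20.2%), and Rgs5, Rgs11 and Rgs17 lay below (background 16.1%). Within the RZ subfamily, whose products favor Gz and Gi class subunits, Rgs20 yielded 123, 119.6 and 114 CPM per fear conditioned library and 69.8 and 57.7 CPM per control library, whereas Rgs17 had 82.7, 80.9 and 84.5 CPM and 159.9 and 126 CPM. The pair thus separated the groups in opposite directions, with log2 fold changes of 0.89 (standard error 0.22, adjusted p = 0.200) and -0.77 (standard error 0.23, adjusted p = 0.217) in limma, and neither passed. Rgs19 (log2 fold change 0.31) and the R4 member Rgs3 (0.18) overlapped, and the R7 member Rgs11 had a log2 fold change of -0.63. Rgs1 and Rgs13 were under the minimum mean of 1 CPM, with at most 127 and 31 reads in a library.

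Of 5 listed partners of the R7 family, 3 were in the table, and these 3 were higher on average. Gnb5, the beta subunit that R7 proteins need for stability, stood at 867, 964 and 901 CPM with fear conditioning and at 397 and 697 CPM without it (log2 fold change 0.79, standard error 0.29). Rgs7bp, the anchor that holds R7 dimers at the membrane, had 392, 708 and 811 CPM and 246 and 375 CPM (1.00, standard error 0.38). Both genes exceeded both controls in every fear conditioned library (background 20.2% of all genes). Gpr158, an orphan receptor that binds Rgs7, had 68.5, 146 and 136 CPM and 49.6 and 84.6 CPM, with overlap (0.76, standard error 0.42), and the adjusted p-values of the 3 genes ranged from 0.263 to 0.406 in limma.

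Among G protein alpha subunits of all classes, 2 of 12 tested genes lay above and 7 below both controls in each fear conditioned library (background 20.2% and 16.1%). Their median log2 fold change was -0.47. These counts include Gnal (above) and Gnas (below) of the Gs class, on which the members are not known to act as GTPase activators. Gnai1, an adenylyl cyclase-inhibiting subunit, yielded 129, 133 and 109 CPM per fear conditioned library and 296 and 195 CPM per control library (log2 fold change -0.95, adjusted p = 0.208, limma). Gna13 had a log2 fold change of -0.96, from 45.5 and 45.6 CPM in controls to between 19.3 and 29.7 CPM. Gnao1, the alpha subunit with the highest mean CPM (not divided by length), had 797, 989 and 995 CPM and 608 and 1382 CPM, with a log2 fold change of 0.01. Gna15 yielded 22, 78 and 40 reads per fear conditioned library but 0 and 1 per control library, a level at least 16.2-fold higher after fear conditioning against a floor of 3 reads in each control library. None of the 12 passed the cutoffs, and at an unadjusted p under 0.05 in limma 1 was higher and 3 were lower (background 9.49% and 7.32%).

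Apart from Gnb5, given above, 12 beta and gamma subunits were tested. Of these, the gamma subunits Gng7 (above, background 20.2%) and Gng2 (below, background 16.1%) separated from both controls in every fear conditioned library. Gng7, the gamma subunit of the striatal Golf complex, stood at 1401, 2347 and 1825 CPM with fear conditioning and at 746 and 1128 CPM without it (log2 fold change 0.99, standard error 0.33). Gng2 had 83.9, 91.4 and 55.9 CPM and 283 and 189 CPM (-1.60, standard error 0.32), and the adjusted p-values were 0.241 and 0.197 in limma. Gng3 had a log2 fold change of -0.41 with overlapping groups.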

How the data were processed

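Ribosome-bound RNA from 5 pools of Drd2-TRAP mice was sequenced, 3 fear conditioned and 2 control, grouped by the labels. The authors deposited a normalized signal per gene and library, in counts per 1000000 of an effective library size, with a gene length. The labels name DESeq and build mm8 and the study's methods the Tuxedo DESeq software, while the single aligner and counter and their versions are not given in the sources used here. All values (100%) were whole multiples of 1 read within 0.01, and these reads were used for the count tests.

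The groups were compared with limma 3.58.1 (eBayes with a trend) on log2(CPM + 1), two-sided, with Benjamini-Hochberg adjustment over 13560 genes with a mean of at least 1 CPM. The cutoffs were an adjusted p under 0.05 and a log2 fold change beyond 0.5 in either direction. The fits were tested on simulated data with the same spread in both groups. This does not show how they behave under the unequal spread of these groups. Alternatives were edgeR 4.0.16, DESeq2 1.42.0, limma voom, other scalings, weights and filters, and each library left out. Single genes were compared with exact permutation tests. R 4.3.3, Python 3.11.15 and pandas 2.3.3 were used.

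The members and gene lists were chosen with earlier results of these data known. Named are the 10 members, the other genes of the RGS subfamilies, the R7 partners and, of each further list, the 3 genes with the smallest p and the one with the highest mean CPM, with markers of the tagged and other cells. All 10 members matched a table of gene identifiers by symbol. Repeated gene names (43) were kept apart by identifier. Lengths were deposited with the table, and the 9 below 0 touch no member. For motifs, RefSeq windows were cut to 250 bases upstream of each start.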

Additional observations from a re-analysis of the deposited data

How the results depend on the processing

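With 3 libraries against 2, the spread of the controls limits every comparison: the biological coefficient of variation was 0.257 in the fear conditioned and 1.33 in the control group. The members past the cutoffs numbered 0 in limma, 2 with DESeq2 and from 0 to 6 with each library left out, and 0 under the other alternatives. Over all genes the numbers were 0, 1296 and from 0 to 8025, again with 0 under the other alternatives, and 2280 genes had an unadjusted p under 0.05. With 1 weight per group (3.10 for fear conditioned and 0.184 for control libraries) the lowest adjusted p of a member was 0.911. In that fit 1 member (Rgs9) and 655 of all genes had an unadjusted p under 0.05. The members without overlap numbered 5, 4 after quantile normalization, and from 5 to 10 with each library left out, a setting added after the data were seen. Without control replicate 6 there were 7 higher and 1 lower (50.2% and 37.3% of all genes), and without control replicate 7 there were 7 higher and 3 lower (37.3% and 40.7%).

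Apart from left-out libraries, the direction of 9 members held under all alternatives that gave a value, and Rgs6 turned to -0.50 with quantile normalization, -0.71 with edgeR and -0.74 with DESeq2. The only changed calls there were those of DESeq2 for Rgs8 (1.13) and Rgs9 (1.30). With each library left out, the log2 fold change ranged from -0.84 to 0.41 for Rgs2, 0.39 to 1.98 for Rgs4, -1.61 to 2.04 for Rgs6, -0.65 to 0.45 for Rgs7, 0.91 to 1.37 for Rgs8, 0.85 to 2.06 for Rgs9, -0.71 to 5.57e-05 for Rgs10, 0.53 to 0.78 for Rgs12, 0.14 to 1.11 for Rgs14 and 1.18 to 1.67 for Rgs16. The cause of these shifts was not tested. With a value of at least 1 CPM in every library, Rgs6 and Rgs16 were not tested. No paired analysis was possible because the groups share no replicate number.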

Other observations

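Genes outside the RGS subfamilies that also act on G proteins lay mostly higher after fear conditioning. Of 9 such modulators in the table, 6 lay above both controls in every fear conditioned library and 0 below (background 20.2% and 16.1% of all genes), with a median log2 fold change of 0.60. Rasd2 (Rhes), a striatum-enriched small GTPase that dampens receptor signalling to G proteins, had the highest mean CPM of the list (not divided by length), with 965, 1793 and 1467 CPM after fear conditioning and 283 and 671 CPM in controls (log2 fold change 1.64, adjusted p = 0.207, limma with Benjamini-Hochberg adjustment). Gpsm2, which binds Gi class subunits in their GDP-bound form, yielded 198, 472 and 256 reads per fear conditioned library and none in either control, at least 108-fold higher against a floor of 3 reads in each control library. Gprin3 yielded 177, 647 and 435 reads against none in either control, at least 147-fold higher against the same floor. Both genes are among the 976 and 2681 genes that control replicates 6 and 7 listed at 0. None of the 9 genes passed the cutoffs.

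Other genes with an RGS homology domain showed no common direction, with a median log2 fold change of -0.22. Of 14 tested, 3 lay above and 3 below both controls in every fear conditioned library (background 20.2% and 16.1%). Adrbk1, the receptor kinase whose RGS homology domain binds Gq class subunits, yielded 84.0, 74.0 and 72.5 CPM per fear conditioned library and 106 and 139 CPM per control library (log2 fold change -0.66, unadjusted p = 0.0326 and adjusted p = 0.259, limma). The sorting nexin Snx14 had 43.1, 41.1 and 44.4 CPM and 26.9 and 24.8 CPM (0.71). Axin1, a scaffold of the Wnt pathway, stood at 474, 825 and 461 reads with fear conditioning and at 513 and 0 reads without it, so its log2 fold change of 2.67 rests on control replicate 7 and was 0.58 without it. Grk6, which had the highest mean CPM of its list, had a log2 fold change of -0.39 with overlapping groups.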
